A study of Mus musculus with 6 samples.

Results

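Hypoxia-inducible factors (HIFs) and the enzymes that tune them to oxygen were followed in the primary somatosensory (S1) cortex of mice with and without whisker stimulation. The set held 10 named genes, chosen by name and not by their values: the α subunits Hif1a, Epas1 and Hif3a, the β subunits Arnt and Arnt2, the prolyl hydroxylases Egln1, Egln2 and Egln3, the asparaginyl hydroxylase Hif1an, and the ubiquitin ligase subunit Vhl. Of the 14824 genes listed in the deposited table, 8 rows carried 1 of these symbols, and Arnt was listed under its older name Hif1b with the symbol Arnt beside it, which gave 9 genes with values. Epas1 had no row under its own symbol and was not analysed here. All 9 genes passed the filter on low counts.

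The mice were wild-type (WT), of the C57B6 strain, and at postnatal day 21. The stimulated group (WS, n = 3) had daily brushing of the whiskers, and its tissue was collected 90 minutes after the last stimulation. The non-stimulated group (NS, n = 3), titled as a control in the sample names, is labelled as having no treatment. In the study's paradigm the whiskers of 1 side were brushed, and the barrel cortex on the unstimulated side of the brain served as NS, so WS and NS may be both sides of the same brains. The samples were whole tissue, labelled as a mix of neurons, astrocytes, endothelial cells, oligodendrocytes, pericytes and microglia, so fewer cells of a type and less RNA per cell cannot be told apart. Each group of 3 came from male mice, pooling is not described, the sources used here do not say which NS and WS libraries share a mouse, and the p-values measure the spread between these samples only. RNA was accepted for sequencing at an integrity number above 2.

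HIFs are pairs of an oxygen-regulated α subunit and a stable β subunit. When oxygen is present, the EGLN enzymes hydroxylate prolines of the α subunit, VHL then binds it, and the ubiquitin ligase that VHL belongs to marks it for destruction. HIF1AN, also called FIH, hydroxylates an asparagine that the α subunit needs to recruit coactivators. These enzymes use oxygen, iron and 2-oxoglutarate, so much of the control acts on HIF protein, which these RNA data do not measure. In the brain, Vegfa, Slc2a1 and genes of glycolysis are well-known HIF targets.

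Counts per library were recovered from standardized values in the deposited table. Counts summed to between 15660395 and 17276168 per library and were scaled to a common library size after TMM normalization, in units abbreviated CPM. Differences between groups came from edgeR's quasi-likelihood test over 13747 genes, with Benjamini-Hochberg adjustment, and a gene was called at an adjusted p under 0.05 with an absolute log2 fold change above 1. WS replicate 1 and WS replicate 3 stood apart by base composition: when genes were cut into 4 equal bins by transcript GC content, the median log2 deviation from the 6-library mean in the lowest bin was -0.16 in WS replicate 1 and 0.10 in WS replicate 3, and in the highest bin it was 0.15 and -0.08. In the other 4 libraries these medians lay within 0.05 of 0. WS replicate 1 held the highest or lowest CPM of 52.2% of all tested genes, and WS replicate 3 of 46.2%, against 21.6% to 28.8% in each of the others. Results are therefore also given without WS replicate 1 where that matters.

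None of the 9 HIF genes was called. Over all tested genes 0.0291% were called higher in WS and 0.0% lower. The WS and NS libraries overlapped for each of the 9 genes, where 6.27% of all tested genes had groups that did not overlap. Of the 9 fitted log2 fold changes 5 were above 0 and 4 below, with a median of 0.01, against a median of 0.01 over all tested genes. Every adjusted p was 0.9998 in edgeR, where 0.0364% of all tested genes had an adjusted p under 0.05. No HIF gene had an unadjusted p under 0.05, beside 1.19% of all tested genes (0.866% higher in WS and 0.327% lower). All 9 of the 95% intervals lay within 1 log2 unit of 0, and 8 of them within 0.4, so a doubling of the RNA of any of them lay outside its interval.

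**Figure D1:**
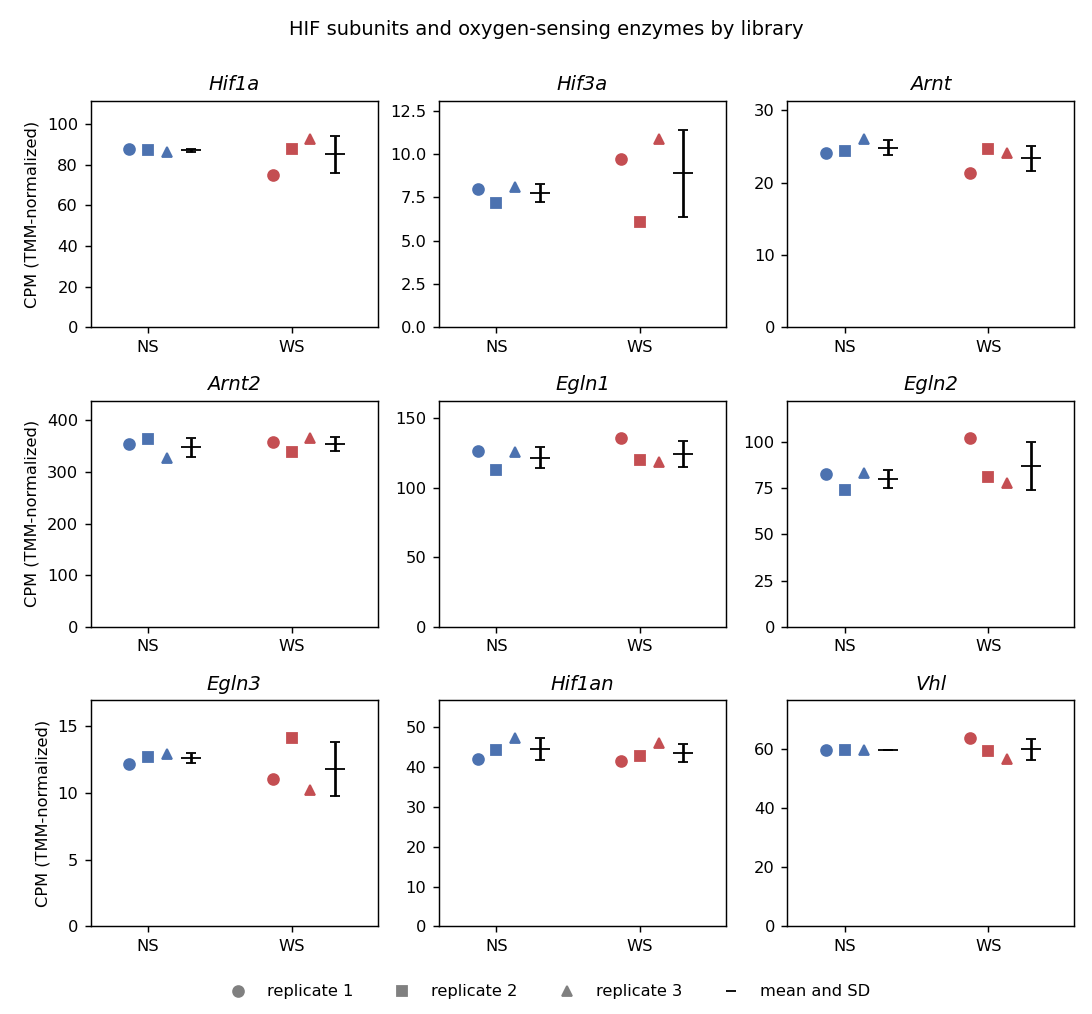
CPM after TMM scaling (y axis, from 0) of each of the 9 genes in the 3 NS (blue) and 3 WS (red) libraries, with the symbol marking the replicate number and the bar showing the group mean ± SD. NS and WS points overlapped in every panel, and the WS points of Hif3a, with a coefficient of variation of 28.2%, were the most spread.

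Among the α subunits, Hif1a encodes the oxygen-labile partner that most cells carry. It lies on the plus strand at chr12:73901375-73947530 of GRCm38. Its level was 87.5, 87.1 and 86.3 CPM in NS replicates 1, 2 and 3, and 74.9, 87.6 and 92.7 CPM in the WS replicates. The NS libraries lay close together, and WS replicate 1 fell below them while WS replicates 2 and 3 were above. The means were 87.0 ± 0.595 CPM in NS and 85.0 ± 9.15 CPM in WS (mean ± SD, n = 3), which gave a log2 fold change of -0.03 (SE 0.09, 95% interval -0.23 to 0.16, edgeR adjusted p = 0.9998, exact permutation p = 1.0). Without WS replicate 1 it was 0.05. The spread of the NS libraries, a coefficient of variation of 0.683%, was below the 2.68% that counting error alone gives at this depth, so the closeness of those 3 values is no measure of the true spread between samples.

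Annotated exons of Hif1a share 330 bases with the antisense gene Gm15283 and 148 bases with Gm49321 on the same strand. Since no source used here says whether strand was used in counting, reads in those stretches cannot be assigned with certainty.

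Hif3a, whose product can limit the action of the other α subunits in some of its splice forms, was the least abundant of the 9 genes (chr7:17031507-17062427, minus strand). Its counts were 127, 115 and 130 in NS, or 8.01, 7.18 and 8.07 CPM. They were 164, 98 and 172 in WS, or 9.72, 6.06 and 10.9 CPM. The highest and the lowest library were both WS, and WS replicate 2 fell below all NS libraries. The log2 fold change of 0.20 was the largest in size among the 9 genes, with a 95% interval of -0.23 to 0.62 (SE 0.19, edgeR adjusted p = 0.9998, exact permutation p = 0.5). It was 0.12 without WS replicate 1 and 0.027 without WS replicate 3. Without WS replicate 2 it was 0.40, with an edgeR adjusted p of 0.9998, and 0.0233 before adjustment was the lowest p that any of the 9 genes reached under any alternative. In WS the counting error alone was 8.31% of the level, against a spread of 28.2%.

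The β subunits pair with every α subunit. Arnt, the general partner (chr3:95434388-95497240, plus strand), stood at 24.1, 24.4 and 26.0 CPM in NS and at 21.4, 24.6 and 24.1 CPM in WS. WS replicate 1 was the lowest of the 6, and the other WS libraries lay inside the NS range. The log2 fold change was -0.09 (SE 0.10, 95% interval -0.30 to 0.12, edgeR adjusted p = 0.9998), and -0.03 without WS replicate 1.

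Arnt2, the β subunit known for its high expression in neurons (chr7:84246278-84410176, minus strand), stood at 353.0, 363.4 and 327.5 CPM in NS and at 357.9, 338.7 and 364.6 CPM in WS. WS replicate 3 was the highest and NS replicate 3 the lowest, and the remaining 4 libraries were interleaved. The log2 fold change was 0.02 (SE 0.07, 95% interval -0.14 to 0.19, edgeR adjusted p = 0.9998). Exons of Arnt2 share 214 bases with Gm30873 on the opposite strand. Per kilobase of annotated exon, the Arnt2 level was 14.6 ± 1.32 times the Arnt level in NS and 15.8 ± 1.55 times in WS (mean ± SD, n = 3), a difference smaller than the spread (exact permutation p = 0.4, and 0.625 after Benjamini-Hochberg adjustment over 5 ratios).

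Of the prolyl hydroxylases, EGLN1 (PHD2) is the main one to mark HIF1A for destruction, and Egln1 and Egln3 are themselves known to be raised by HIF. Egln1 (chr8:124908587-124949324, minus strand) stood at 126.0, 112.8 and 125.8 CPM in NS and at 135.3, 119.6 and 118.4 CPM in WS. WS replicate 1 was the highest, NS replicate 2 the lowest, and the other WS libraries fell between NS values. The log2 fold change was 0.03 (SE 0.08, 95% interval -0.15 to 0.22, edgeR adjusted p = 0.9998), and -0.03 without WS replicate 1.

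Egln2, also called PHD1 (chr7:27158658-27166802, minus strand), had the smallest p of the 9 genes, 0.282 before adjustment in edgeR. It stood at 82.8, 74.3 and 83.2 CPM in NS and at 102.0, 81.3 and 77.6 CPM in WS. WS replicate 1 was above all other libraries, and WS replicates 2 and 3 were inside the NS range. The log2 fold change of 0.12 (SE 0.11, 95% interval -0.11 to 0.35, edgeR adjusted p = 0.9998) became -0.01 without WS replicate 1. Its annotated exons share 11 bases with Cyp2t4 on the opposite strand.

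Egln3, or PHD3 (chr12:54178981-54203860, minus strand), is the family member most often used as a readout of HIF activity. Its counts were 193, 203 and 208 in NS, or 12.17, 12.67 and 12.92 CPM. They were 186, 228 and 162 in WS, or 11.02, 14.10 and 10.23 CPM. WS replicates 1 and 3 were below every NS library and WS replicate 2 above, and the log2 fold change was -0.09 (SE 0.13, 95% interval -0.39 to 0.20, edgeR adjusted p = 0.9998). It was -0.05 without WS replicate 1, -0.25 without WS replicate 2 and -0.0042 without WS replicate 3.

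Hif1an, the asparaginyl hydroxylase gene (chr19:44562850-44576274, plus strand), stood at 42.0, 44.4 and 47.3 CPM in NS and at 41.6, 42.9 and 46.0 CPM in WS. It was the only one of the 9 genes with the same sign in all 3 pairs of libraries that share a replicate number. WS was lower by 0.01, 0.05 and 0.04 on the log2 scale of CPM. The group ranges overlapped over most of their length, and the log2 fold change was -0.04 (SE 0.09, 95% interval -0.23 to 0.16, edgeR adjusted p = 0.9998). It was -0.0038 without WS replicate 1 and 0.0092 without NS replicate 3.

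Vhl (chr6:113623959-113631633, plus strand) stood at 59.6, 59.5 and 59.6 CPM in NS and at 63.7, 59.3 and 56.6 CPM in WS. WS replicate 1 was the highest of the 6 libraries and WS replicate 3 the lowest, with the NS libraries packed between them. The log2 fold change was 0.01 (SE 0.08, 95% interval -0.17 to 0.18, edgeR adjusted p = 0.9998, exact permutation p = 1.0), and -0.04 without WS replicate 1. As for Hif1a, the NS spread of 0.127% was below the counting error of 3.24%.

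**Figure D2:**
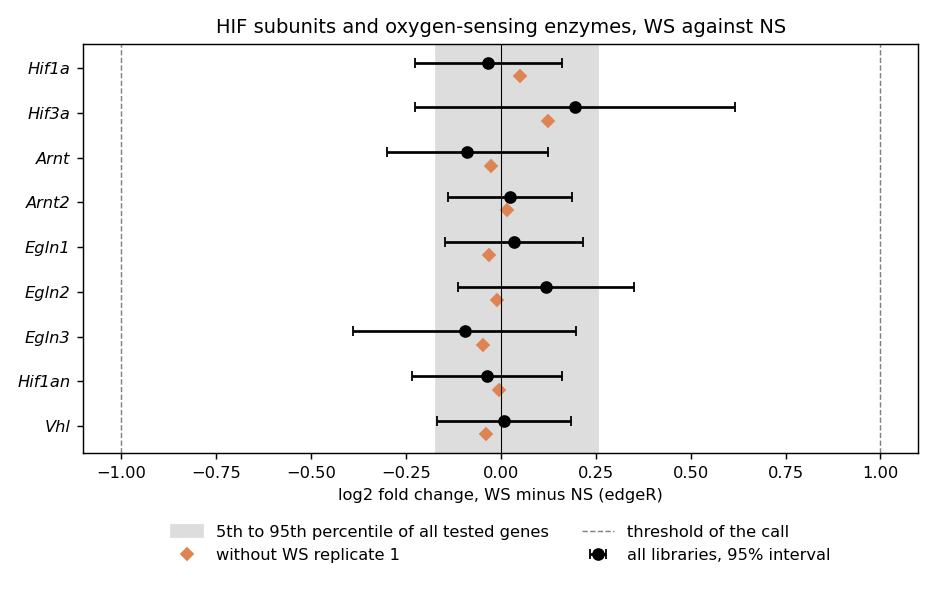
The x axis gives the log2 fold change, WS minus NS, with its 95% interval from edgeR for each of the 9 genes (black), and the same without WS replicate 1 (orange), beside the 5th to 95th percentile of all tested genes (-0.17 to 0.26, grey) and the fold threshold of a call (dashed). All intervals crossed 0 and none reached a dashed line.

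Across genes, levels were compared per kilobase of annotated exon, as CPM per kilobase averaged over the 6 libraries. Arnt2 was the highest at 45.6, ahead of Egln1 at 34.2 and Egln2 at 29.8. Vhl followed at 19.9, Hif1a at 14.6, Hif1an at 6.67, Egln3 at 4.58, Arnt at 3.01 and Hif3a at 1.24. Egln1 and Egln2 were the only neighbours in this order whose ranges over the 6 libraries overlapped. On this scale Hif1a was the more abundant of the 2 α subunits with values, and the Hif3a level was 0.0783 ± 0.00522 of the Hif1a level in NS and 0.0926 ± 0.0281 in WS (mean ± SD, n = 3, exact permutation p = 0.5, adjusted p = 0.625).

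**Figure D3:**
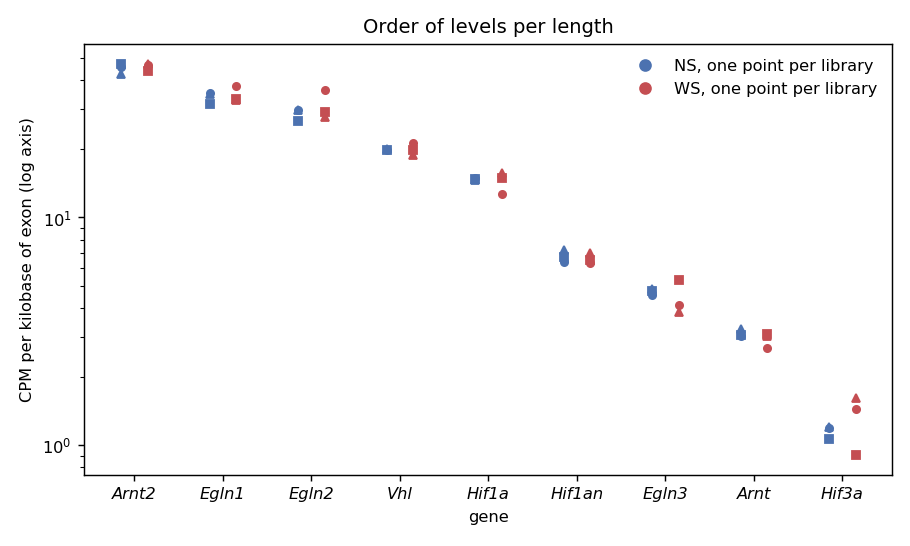
CPM per kilobase of annotated exon (y axis, log scale) for the 9 genes in order of their mean, 1 point per library, NS in blue and WS in red, with circles, squares and triangles for replicates 1, 2 and 3. The 6 points of a gene stayed apart from those of its neighbours for every pair except Egln1 and Egln2.

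Within the prolyl hydroxylases, Egln1 made up 48.1% to 51.1% of the summed CPM per kilobase in a library, Egln2 42.3% to 46.6% and Egln3 5.29% to 7.84%. The share of Egln2 was 46.6% in WS replicate 1 and at most 43.0% in the other 5 libraries. The Egln1 to Egln2 ratio was 1.18 ± 0.00395 in NS and 1.12 ± 0.0795 in WS, and the Egln3 to Egln1 ratio was 0.140 ± 0.0107 in NS and 0.129 ± 0.0267 in WS (mean ± SD, n = 3). Both differences were smaller than the SD in WS, though larger than the SD in NS (exact permutation p = 0.4 and 0.5, adjusted p = 0.625 for both). The summed level of the 3 hydroxylases was 4.55 ± 0.272 times that of Hif1a in NS and 4.94 ± 1.08 times in WS (exact permutation p = 0.9). WS replicate 1 had the highest ratio, 6.16, and the other 5 libraries ran from 4.10 to 4.75. Its log2 difference was 0.10, and -0.07 without WS replicate 1. This ratio was chosen after the values were seen, and the smallest p that 3 against 3 libraries allow in the two-sided exact test is 0.10.

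The 9 genes differed in transcript GC content, from 41.3% in Hif1a to 62.2% in Egln2, which is higher than in 98.1% of tested genes. WS replicate 1 held the extreme value of 6 of the 9 genes. There Hif1a, Arnt, Egln3 and Hif1an stood below their own 6-library mean by 0.20, 0.17, 0.13 and 0.08. These values are on the log2 scale of CPM with a pseudocount of 0.5, as are those below. Egln2, Hif3a, Egln1, Vhl and Arnt2 stood above it, by 0.29, 0.24, 0.14, 0.09 and 0.03. When a trend on GC content and exon length was removed from each library, an alternative chosen after these values were seen, the log2 fold change of Egln2 was 0.02 (SE 0.07) in place of 0.12 (SE 0.11), and that of Hif1a was -0.01 (SE 0.05) in place of -0.03 (SE 0.09). The SE was smaller than before in 9 of the 9 genes, and none of them was called. Because the trend was fitted to these same libraries, the smaller SE is no separate evidence. Its share over all tested genes was not computed.

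**Figure D4:**
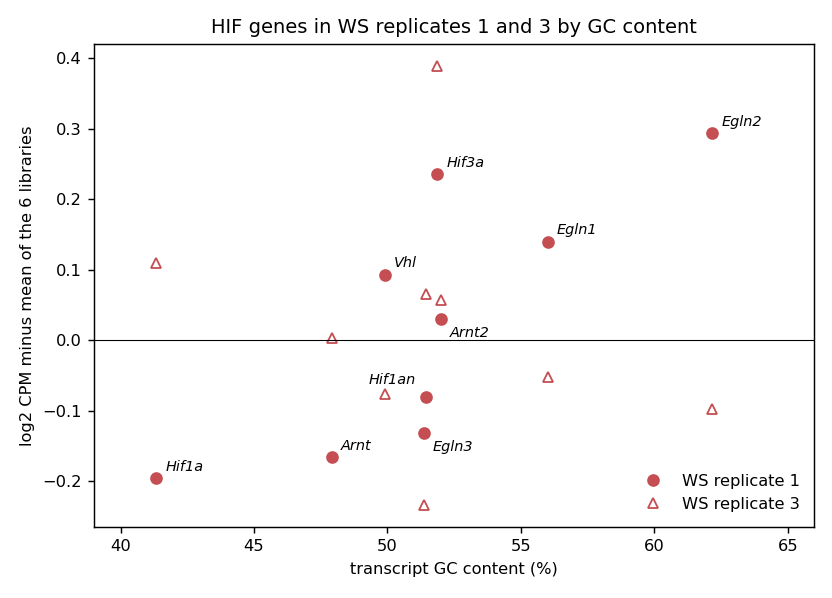
Transcript GC content (x axis, %) against the log2 CPM of each gene minus its mean over the 6 libraries (y axis), for WS replicate 1 (filled circles, named) and WS replicate 3 (open triangles). In WS replicate 1 Hif1a, with the lowest GC content, was the lowest at -0.20, and Egln2, with the highest, was the highest at 0.29.

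The spread was larger in WS than in NS for 7 of the 9 genes, against 64.1% of all tested genes. The median coefficient of variation over all tested genes was 7.15% in NS and 10.1% in WS.

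Genes with the profile most like that of Hif1a over the 6 libraries were Sgcb, Cul5 and Ubxn7. Their root mean square differences in centred log2 CPM (pseudocount 0.5) were 0.0137, 0.0160 and 0.0174. For Egln2 they were Spire2, Ctsa and Drap1, at 0.0199, 0.0219 and 0.0250. The search covered 10875 genes with at least 100 counts on average. The 3 genes nearest to Hif1a had transcript GC contents of at most 43.9%, and those nearest to Egln2 of at least 54.5%, which lie below and above the median of 50.0% over tested genes.

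HIF binds DNA at a short core, ACGTG or GCGTG, and promoters were read for it because several of these genes are known HIF targets. On either strand of the 250 bases before a RefSeq start, 38.6% of 32851 mouse promoters held 1 or the other (16.6% ACGTG, 28.2% GCGTG). Of the 9 genes with values, 6 had at least 1 match (Hif1a, Hif3a, Arnt, Egln1, Egln2 and Egln3) and Arnt2, Hif1an and Vhl had none. A match is a description of the letters and not evidence of binding. Stretches of 4 of these promoters are shown 5′ to 3′ on the strand of the gene, in GRCm38.p6, with each match on either strand in capitals. They were chosen after the matches were seen, as the α subunit with the highest level and the family of 3 hydroxylases.
Hif1a: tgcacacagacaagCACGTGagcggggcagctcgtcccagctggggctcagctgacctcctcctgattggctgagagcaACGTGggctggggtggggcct
Egln1: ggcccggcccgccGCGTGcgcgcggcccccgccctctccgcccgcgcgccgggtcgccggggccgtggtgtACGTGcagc
Egln2: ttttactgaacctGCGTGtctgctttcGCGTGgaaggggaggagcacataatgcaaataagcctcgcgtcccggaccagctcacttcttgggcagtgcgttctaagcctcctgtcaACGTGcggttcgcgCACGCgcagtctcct
Egln3: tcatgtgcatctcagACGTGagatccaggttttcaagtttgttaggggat
The Hif1a stretch (chr12:73907718-73907817, plus strand, 149 to 50 bases before the RefSeq start) lies in the annotated gene but outside its exons, and holds ACGTG on both strands in an overlapping pair and once more downstream. The Egln1 stretch (chr8:124949314-124949393, minus strand, 139 to 60 bases before the start) holds 1 match of each kind, and 11 of its bases are in an annotated exon. The Egln2 stretch (chr7:27166822-27166966, minus strand, 164 to 20 bases before the start) belongs to the promoter with 4 matches, and a second RefSeq promoter of Egln2 had 1. The Egln3 stretch (chr12:54204069-54204118, minus strand, 244 to 195 bases before the start) holds 1 ACGTG. None of these 4 genes passed the test between WS and NS.

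The genes that HIF activates were described as a list of 25, of which 23 were tested. Epo had no row, and Car9 had too few counts. Vegfa, the endothelial growth factor that drives vessel sprouting, was called higher in WS, and it was the only gene of the list past the test. It stood at 50.0, 52.8 and 49.9 CPM in NS and at 99.9, 146.8 and 157.6 CPM in WS, with no overlap. Its log2 fold change was 1.40 (SE 0.14, 95% interval 1.09 to 1.71, edgeR adjusted p = 0.00356). The call was lost when either of 2 NS libraries was left out: without NS replicate 2 the log2 fold change was 1.43 with an edgeR adjusted p of 0.0851, and without NS replicate 3 it was 1.39 with 0.0636. Leaving out any of the other 4 libraries kept the call, with log2 fold changes from 1.28 to 1.58.

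Of the 23 tested targets 11 had a log2 fold change above 0 and 12 below, with a median of -0.02 beside 0.01 over all tested genes. Leaving out Vegfa, the other 22 ranged from -0.31 (Hk2, hexokinase, -0.42 to -0.20 with 1 library left out) to 0.49 (Ankrd37, 0.24 to 0.78), and the smallest unadjusted edgeR p among them was 0.0516. That was Ndrg1, a stress-response gene, with a log2 fold change of 0.18. Slc2a1, the glucose transporter of the blood-brain barrier, had 0.13, from 140.9, 125.4 and 158.3 CPM in NS against 180.2, 131.6 and 152.8 CPM in WS, with overlap. Without WS replicate 1 it was 0.0072. A further 3 targets had groups that did not overlap, all lower in WS and none past the test. They were Ero1l (-0.17), an oxidase of the endoplasmic reticulum, Pdk1 (-0.10), a mitochondrial kinase that inhibits pyruvate dehydrogenase, and Pgk1 (-0.09), a glycolytic enzyme. Higd1a and Pfkfb4 had -0.10 each, with leave-one-out ranges of -0.14 to -0.05 and -0.17 to -0.018. Of the 40 genes outside the HIF set that are named for their place on this and the following pathway lists, 36 moved by over 1.5 times or turned sign when 1 library was left out, and only Vegfa, Pdk1, Crebbp and Idh3a did not. Over all tested genes 3.16% had WS libraries all below NS and 3.11% all above.

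**Figure D5:**
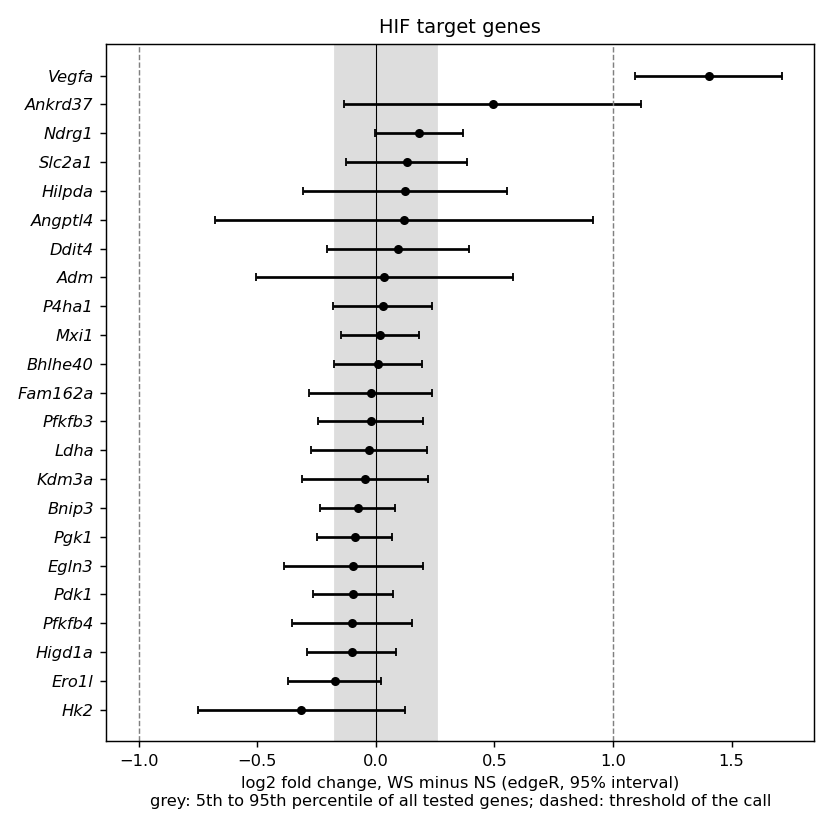
The x axis gives the log2 fold change, WS minus NS, with the 95% interval from edgeR for the 23 tested HIF target genes, ordered by fold change, with the 5th to 95th percentile of all tested genes in grey and the fold threshold of a call dashed. Vegfa lay beyond the threshold at 1.40, and the intervals of the other 22 genes crossed 0.

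The partners of VHL and other proteins that control HIF turnover made a list of 13, with 0 called, 5 above 0 and 8 below, and a median log2 fold change of -0.03. The lowest were Cul2, the cullin scaffold of the VHL ligase (-0.12), Eloc, its elongin C (-0.11), and Siah1a, a ligase for EGLN proteins (-0.09). The highest were Rack1 (0.10), Os9 (0.08) and Elob, elongin B (0.03). Vhl itself had 0.01, as given above.

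Coactivators and antagonists of HIF made a list of 10, with 0 called, 7 above 0 and 3 below, and a median of 0.03. Crebbp, the acetyltransferase CBP, had a log2 fold change of 0.14 with WS libraries all above NS, Cited4 had 0.12 and Mtor 0.07, while Cited2, which competes with HIF1A for CBP, had -0.06, Ncoa2 -0.04 and Sirt1 -0.04. The median of this list was -0.011 without NS replicate 3. Relatives of the subunits in the bHLH-PAS family made a list of 12, of which 10 were tested, with 0 called, 6 above 0 and 4 below, and a median of 0.03. In that list Npas1 had 0.14, Npas3 0.13 and Ncoa3 0.07, and the clock genes Arntl and Clock had -0.19 and -0.11. Leaving out WS replicate 1 gave -0.0016 for Clock, leaving out NS replicate 1 gave -0.11 for Arntl, and leaving out WS replicate 3 gave 0.0098 for Npas3 and 0.0069 for Ncoa3. Npas4, an activity-regulated gene of neurons, ran from 16.6 to 44.3 CPM in NS and from 19.5 to 41.1 CPM in WS, with a log2 fold change of -0.0037.

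Other hydroxylases and demethylases that use 2-oxoglutarate made a list of 24, with 0 called. Of these, 20 had a log2 fold change above 0 and 4 below, with a median of 0.06 that ran from 0.018 (without WS replicate 3) to 0.074 as 1 library was left out. Plod1, a collagen lysyl hydroxylase, had 0.24 with WS libraries all above NS and an unadjusted p of 0.0347 (edgeR, adjusted p = 0.9998), the only p under 0.05 in the list. Ogfod2 had 0.14 and the histone demethylase Kdm6b 0.12, against -0.06 for Kdm6a, -0.05 for Ogfod1 and -0.05 for Tet2.

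The enzymes that make or consume 2-oxoglutarate and succinate made a list of 22, with 0 called, 10 above 0 and 12 below, and a median of -0.01, which lay above 0, at 0.025 and 0.023, when NS replicate 3 or WS replicate 3 was left out. The highest were Gpt (0.09), Glud1 (0.08) and Ogdh (0.07), and the lowest were Dld (-0.12), Idh3a (-0.11, with WS libraries all below NS) and Sdhd (-0.09).

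Markers of the cell types in the tissue were read beside these results. Every listed marker with a row had counts, but so did nearly every gene of the table in every library, so this does not describe the cell types. Ttr, the defining marker of choroid plexus, and Isl1 of the striatal list had no row. Summed CPM of 10 microglial markers (9 of 10 above 0 on the log2 scale) was 507.8 to 534.1 in NS and 540.4 to 558.9 in WS. That of 10 pericyte markers (8 of 10) was 286.2 to 289.8 in NS and 293.0 to 339.8 in WS. These 2 sums did not overlap between the groups, and the sums were not tested. Of single markers, 0 on the microglial list and 1 on the pericyte list did not overlap, beside 6.27% of all tested genes. The astrocyte list (10 of 10 markers above 0 on the log2 scale, 4587 to 5100 CPM in NS and 4810 to 5935 in WS), the endothelial list (14 of 14, 338.2 to 381.9 and 374.2 to 440.3) and the oligodendrocyte list (10 of 10, 8299 to 11900 and 9850 to 13154) overlapped. So did the neuronal list (5 of 10, 12507 to 12784 and 12182 to 13012), the blood list (6 of 6, 484.5 to 766.9 and 603.3 to 638.7), the striatal list (9 of 9, 354.8 to 494.4 and 347.7 to 740.7) and the choroid plexus list (3 of 9, 495.0 to 887.5 and 304.3 to 1012.0). The lowest astrocyte sum in NS was in NS replicate 3. There Gja1 had 347 counts, against 2953 to 3688 in the other libraries, and its log2 fold change was 0.59 (SE 0.51). The reason for that value was not tested. No marker was called. The endothelial marker Pecam1 had a log2 fold change of 0.87 (unadjusted p = 0.00053, adjusted p = 0.813 in edgeR) and the oligodendrocyte marker Olig1 0.22 (unadjusted p = 0.0284, adjusted p = 0.9998 in edgeR), both with WS libraries all above NS. They were the only 2 markers with an unadjusted p under 0.05 in edgeR, beside 1.19% of all tested genes. The groups also did not overlap for Ndufa4l2 of the pericyte list (0.21, higher in WS) and Syt1 of the neuronal list (-0.08, lower in WS). The part of cell composition in the values of the HIF genes was not tested.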

How the data were processed

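Libraries of S1 cortex RNA, 3 NS and 3 WS, were sequenced on a DNBseq instrument. Reads from rRNA and reads of poor quality were discarded by the authors before alignment with HISAT2. The submitters' processing notes name mm10, and the counting tool is not given in the sources used here. The deposited table holds, for each gene, a mean estimated count over the 6 libraries (the authors applied no scaling for depth), the SD of those counts, and each library's z-score. A second table and the columns of the authors' own comparison (fold changes, p and FDR values) were not used. No per-sample column was left unused. The z-score column headed with an extra N was assigned to WS replicate 3, because the authors' mean score for WS contains it.

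To recover a library's count, its z-score was multiplied by the SD, added to the mean, and rounded. Over the 13418 genes where the deposited decimals left under 0.1 count of uncertainty, 88.5% of values lay within that uncertainty of a whole number. For genes with at least 10 counts on average the uncertainty was at most 0.0785% of the mean. A value under 0.5 occurred 1 time, so it seems that genes with a 0 in any library were dropped by the authors. Whether a given gene without a row, such as Epas1 or Ttr, had a 0 cannot be told. Enpp2, on the choroid plexus list with Ttr, had 4910 to 14204 counts per library. Every pair of libraries differed beyond sampling noise (lowest chi-square 4.29 per degree of freedom).

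The test was edgeR 4.0.16 (TMM, filterByExpr, quasi-likelihood F test, R 4.3.3) with Benjamini-Hochberg adjustment over 13747 genes. The common biological coefficient of variation was 10.1%. On simulated data of 13668 genes with 200 changed, each at a mean of at least 100 counts, an adjusted p under 0.05 alone recovered 64.2% of genes changed by 0.5 on the log2 scale and 100% of those changed by 1, and 8.81% of the genes it marked were unchanged. The full call, with its fold threshold, recovered 0% at 0.5, 47.8% at 1 and 100% at 2, and 4.85% of its calls were unchanged genes. The simulation changed 200 genes, but only 5 passed the adjusted threshold in the real libraries. Benjamini-Hochberg adjustment asks for a smaller unadjusted p when fewer genes pass. The simulated recovery may therefore be higher than the power for the HIF genes. Exact two-sided permutation tests used SciPy 1.17.1 in Python 3.11.15. Exon length and GC content came from GENCODE M21 (GRCm38), found for 99.8% of genes, and promoters from RefSeq on GRCm38.p6, matched by symbol for all 9 genes. By counting error, Hif3a and Egln3 were measured less precisely than Arnt2.

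Replicate numbers come from the sample titles. The study's paradigm takes the unstimulated side of the brain as control, but the sources used here do not say which numbered NS and WS libraries share a mouse. Hbb-b1, a globin gene of the blood list, had 1545 counts in NS replicate 2 and 1724 in WS replicate 2. It had 3 and 8 counts in the other NS libraries and 5 and 74 in the other WS libraries. Whether a shared mouse accounts for this was not tested. Deviations from the group means correlated between same-numbered NS and WS libraries with r = 0.34, 0.23 and 0.13 over 13688 genes. Between libraries of different numbers r ran from -0.26 to 0.037. Each same-numbered value was above 0.1, though the last only narrowly, and the numbers were taken to pair the samples in the blocked fit. The fit without a block was kept as the main one and the blocked fit as an alternative. The main p-values, SEs and intervals and the exact permutation tests therefore leave any pairing out.

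The genes and lists were chosen with earlier results of these data known. Named were the HIF genes, list members with an adjusted p under 0.05, the 3 highest and 3 lowest fold changes per list at a mean of at least 100 counts, and the 3 nearest profiles to Hif1a and to the gene with the smallest p. Hk2, Ankrd37, Pdk1 and Pgk1 were named after their values were seen, as the ends of the target list or as its other genes without overlap, and Pecam1 and Olig1 as the markers with the smallest p-values. Ratios that need Epas1 were not computed. Alternatives were other normalizations and filters, DESeq2 1.42.0, other thresholds, the replicate block, each library left out, ratios without length scaling and, chosen after the data were seen, a GC and length trend.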

Additional observations from a re-analysis of the deposited data

How the results depend on the processing

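The HIF genes called numbered 0 under every alternative run, and their lowest adjusted p under any was 0.884. Of their fold changes under alternatives, 122 kept their direction and 13 turned it. Leaving out 1 library at a time, the log2 fold change ran from -0.099 to 0.052 for Hif1a (above 0 without WS replicate 1), from -0.018 to 0.056 for Arnt2 (below 0 without NS replicate 3), from -0.030 to 0.069 for Egln1 (below 0 without WS replicate 1, and -0.017 without NS replicate 2), from -0.011 to 0.19 for Egln2 (below 0 without WS replicate 1), from -0.039 to 0.046 for Vhl (below 0 without WS replicate 1) and from -0.079 to 0.0092 for Hif1an (above 0 without NS replicate 3). The log2 difference of the summed hydroxylase to Hif1a ratio ran from -0.073, without WS replicate 1, to 0.22. With the GC and length trend removed, the log2 fold change was -0.0062 for Arnt2, -0.017 for Egln1 and -0.0029 for Vhl, and with the replicate block added to that trend, -0.0059, -0.015 and -0.0040. Of the named genes on the lists around them, 13 turned direction under some alternative. Their leave-one-out ranges were -0.22 to 0.29 for Cited4, -0.064 to 0.10 for Elob, -0.056 to 0.16 for Gpt, -0.18 to 0.092 for Kdm6a, -0.0076 to 0.19 for Kdm6b, -0.0029 to 0.14 for Mtor, -0.12 to 0.011 for Ncoa2, -0.089 to 0.26 for Npas1, -0.31 to 0.31 for Npas4, -0.023 to 0.17 for Os9, -0.016 to 0.17 for Rack1, -0.18 to 0.066 for Sirt1 and -0.29 to 0.096 for Tet2. With the trend removed Cited4 had -0.033 and Elob -0.049, and with the block as well -0.050 and -0.048. Npas4 had 0.00051 under upper-quartile scaling and 0.031 with the replicate block alone. The medians of 2 pathway lists turned sign when 1 library was left out, from -0.036 to 0.025 for 2-oxoglutarate supply and use and from -0.011 to 0.046 for coactivators. So did those of 3 marker lists, from -0.32 to 0.41 for striatum, from -0.049 to 0.32 for blood and from -0.91 to 0.34 for choroid plexus. Vegfa lost its call only without NS replicate 2 or NS replicate 3. The cause of these turns was not tested. Over all genes 4 were called higher and 0 lower. Leaving out 1 library gave 0 to 6 higher (0 without NS replicate 2 and 0 without NS replicate 3) and 0 to 1 lower (1 without WS replicate 3). The replicate block gave 6 higher, DESeq2 5 and the trend 3. With no fold threshold, an adjusted p under 0.05 gave 5 genes in either direction, and an unadjusted p under 0.05 gave 119 higher and 45 lower. The block changed no call of a HIF gene. Depth limits Hif3a most, with 98 to 172 counts per library. In the simulated data the call, which needs a log2 fold change above 1 in size, recovered 0% of genes set to differ by 0.5. It recovered 47.8% of those set to differ by 1. An adjusted p under 0.05 alone recovered 64.2% and 100%. These shares may be too high for the real libraries, where fewer genes passed than were changed in the simulation. The 0 called therefore does not show that smaller differences were absent.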

Other observations

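A row of the table named Hlf (HIF2a) has an uncertain identity. HLF is listed by RefSeq as an older name of Epas1, the gene of HIF2α, but Hlf is also the current symbol of a different transcription factor gene, so its values are given here and belong to neither gene with certainty. It had 4153, 4344 and 4542 counts in NS and 4352, 4185 and 4648 counts in WS. Scaled, it stood at 271.7 ± 10.2 CPM in NS and 270.1 ± 20.3 CPM in WS (mean ± SD, n = 3), with overlapping groups and a log2 fold change of -0.01 (SE 0.08, 95% interval -0.18 to 0.16, edgeR adjusted p = 0.9998).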
